A study of Mus musculus with 12 samples.

Results

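The Hox genes and Hox antisense transcripts of the Hoxa, Hoxb, Hoxc and Hoxd clusters were examined in tumourspheres of mouse mammary cancer cells. Members were genes of the count tables whose GENCODE M21 symbol begins with Hoxa, Hoxb, Hoxc or Hoxd, and 21 of the 18278 genes listed are described. They comprised 11 Hoxa, 1 Hoxb, 4 Hoxc and 5 Hoxd genes. Of the 21, 18 were protein-coding and 3 were transcripts named as antisense or opposite-strand RNAs (Hoxaas2, Hoxaas3 and Hoxd3os1). The annotation holds 45 such symbols. In every listed gene the third-highest of the 12 libraries had at least 8 counts.

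LM1 and LM9 are lines isolated from lung metastases that arose in mice after piggyBac transposon mutagenesis of HR1, a non-metastatic line from PIK3CA H1047R mutant mammary tumours, and their libraries are called parental below. The cells labelled LM1 Nfib KO, and those labelled LM9 Nfib KO, are described as oligoclonal pools made from these lines by CRISPR-Cas9 targeting of Nfib, which encodes a nuclear factor I transcription factor. If so, all 4 groups carry the HR1 background and the transposon system, and each had 3 libraries. Every culture was seeded at 10000 cells per mL and grown without attachment for 6 days with EGF and basic FGF at 20 ng per mL each. The samples are replicate cultures only as far as their numbered titles say, so p-values measure the spread between these libraries.

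Hox genes encode homeodomain transcription factors that give cells their position along the body axis. They lie in 4 clusters in the order in which they are activated, from the 3′ genes with low paralog numbers, used anteriorly and early, to the 5′ genes with high paralog numbers, used posteriorly and late. Adult tissues keep a Hox pattern that reflects where they came from. Polycomb complexes hold silent Hox genes off through H3K27 methylation, trithorax complexes keep active ones on, and HOX proteins bind DNA with TALE homeodomain cofactors of the PBX, MEIS and PREP families.

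The start regions of 4 members are shown because they stand for the patterns described below. Hoxa5 led the parental libraries, Hoxa7 was on in all 4 groups, and Hoxd8 and Hoxd10 were on only in the libraries labelled knockout. Each window runs from 250 bases before to 50 bases after the RefSeq start, 5′ to 3′ on the strand of the gene, with CpG dinucleotides in capitals. On GRCm38.p6 they are chr6:52204538-52204837 (minus strand) for Hoxa5, chr6:52218524-52218823 (minus strand) for Hoxa7, chr2:74704365-74704664 (plus strand) for Hoxd8 and chr2:74691641-74691940 (plus strand) for Hoxd10.
Hoxa5: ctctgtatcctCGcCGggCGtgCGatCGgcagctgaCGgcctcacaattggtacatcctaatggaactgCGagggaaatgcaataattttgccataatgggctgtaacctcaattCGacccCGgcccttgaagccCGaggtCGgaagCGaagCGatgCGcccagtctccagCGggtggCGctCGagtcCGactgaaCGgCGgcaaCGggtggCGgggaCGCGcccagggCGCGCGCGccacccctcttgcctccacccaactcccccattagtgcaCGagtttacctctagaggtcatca
Hoxa7: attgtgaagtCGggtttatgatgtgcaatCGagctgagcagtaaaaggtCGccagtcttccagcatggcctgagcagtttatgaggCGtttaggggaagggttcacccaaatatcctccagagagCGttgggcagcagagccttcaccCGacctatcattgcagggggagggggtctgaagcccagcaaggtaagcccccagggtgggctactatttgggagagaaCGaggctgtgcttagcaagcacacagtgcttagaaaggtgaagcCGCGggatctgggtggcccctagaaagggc
Hoxd8: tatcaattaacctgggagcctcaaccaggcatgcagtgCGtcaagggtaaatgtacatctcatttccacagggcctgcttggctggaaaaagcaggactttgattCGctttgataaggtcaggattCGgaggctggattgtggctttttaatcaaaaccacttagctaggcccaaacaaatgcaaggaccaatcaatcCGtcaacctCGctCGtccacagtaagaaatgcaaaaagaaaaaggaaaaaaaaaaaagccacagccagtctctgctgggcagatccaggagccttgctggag
Hoxd10: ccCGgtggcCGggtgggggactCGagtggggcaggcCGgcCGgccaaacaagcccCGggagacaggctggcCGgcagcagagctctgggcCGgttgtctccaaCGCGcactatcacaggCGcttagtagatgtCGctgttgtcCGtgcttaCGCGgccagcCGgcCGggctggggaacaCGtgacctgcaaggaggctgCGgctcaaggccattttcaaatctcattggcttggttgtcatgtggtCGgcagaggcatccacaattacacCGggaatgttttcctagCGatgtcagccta
These windows held 29, 9, 6 and 22 CpG dinucleotides in the order shown. RefSeq windows were matched for 14 of the 21 members and numbered 15, since Hoxa10 has a pair of starts. The median CpG number was 12 in the 15 Hox windows and 7 in all 32851 windows, and the median GC content was 55.7% against 52.7%. The NFI palindrome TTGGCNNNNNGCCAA, searched like the other motifs on both strands, was in 0 of the 15 Hox windows and in 0.0365% of all windows. The shorter NFI motif TTGGCA, which overlaps part of that palindrome, was in 0 of 15 and in 14.1% of all windows. The TATA motif TATAAA was in 2 Hox windows, 1 of Hoxa10 and that of Hoxd4, and in 13.6% of all windows, and the homeodomain core TAATTA was in 0 of 15 and in 5.29%. These are matches of letters and were not tested as binding sites.

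Library totals ran from 29249075 to 37162594 counts, and levels are given as CPM, the TMM-scaled counts-per-million. A count of 3 in a library, taken as the floor, corresponded to 0.0730 to 0.121 CPM. Nfib mRNA was no lower in the libraries labelled Nfib KO. It stood at 196, 217 and 241 CPM in LM1 and 239, 238 and 228 CPM in the knockout-labelled LM1 libraries. In LM9 it was at 210, 120 and 133 CPM, and in the knockout-labelled LM9 libraries at 227, 247 and 246 CPM. The paper describes guides for frameshifts in early exons, clones screened by immunoblotting, and NFIB staining of tumours. Protein was not measured here, and the mRNA level does not show whether it was lost. Both targeted groups are called knockout-labelled throughout. Over all genes their libraries correlated with LM1 at 0.70 (Pearson, log2 CPM), and markers of their tissue, given at the end, went against a mammary epithelial line. Their descent from LM1 and LM9 rests on the labels and was not tested. LM9 replicate 1 stood with the LM1 libraries over all genes (Pearson correlation of log2 CPM 0.992) rather than with LM9 replicates 2 and 3 (0.964 to 0.966). Values were therefore also computed without it. Fold changes and ratios that it moved by over 1.5 times, or whose call it changed, are given both ways. All groups share 1 estimate of the spread, so leaving it out also moved standard errors and adjusted p-values elsewhere, which are mostly given once. In LM1 the SE of the log2 fold change was 0.17 with it and 0.08 without it for Hoxa10, and 0.31 and 0.47 for Hoxb9.

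Reads of some members cannot be assigned with certainty. Whether counting used strand was not stated. Of exon bases, 20.4% of Hoxa7 lie opposite Hoxaas3, 16.0% of Hoxa4 opposite another annotated transcript and 503 bases of Hoxaas2 opposite Hoxa3. Of the exon bases of Hoxa3, 25.4% lie opposite other transcripts, and on the same strand another gene model (Gm28308) shares 8.01% of them and 267 exon bases of Hoxa2. On the same strand, a readthrough gene model (Gm28230) shares 53.1% of the exon bases of Hoxd3 and 39.1% of those of Hoxd4. Values of Hoxa2, Hoxa3, Hoxa4, Hoxa7, Hoxd3, Hoxd4 and the 3 antisense transcripts are uncertain to the extent of these overlaps, the shares being highest for Hoxd3 and Hoxd4. Hoxc5 shares 5.37% of its exon bases and Hoxd10 5.73% with another annotated gene on the same strand, and Hoxa9 1.52%. Hoxa5, Hoxa6, Hoxa10, Hoxa13, Hoxb9, Hoxc4, Hoxc6, Hoxc8 and Hoxd8 share no exon base with another annotated gene.

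The state of the clusters differed between parental libraries and those labelled knockout. In LM1 and LM9 the only Hox genes with more than 4 counts in any library were those of the Hoxa cluster, and the 10 others (all Hoxb, Hoxc and Hoxd members) had 4 or fewer throughout, as did 7.43% of all listed genes. Of these 10, 6 were at 0 counts in all 6 parental libraries (2.47% of all listed genes). In both knockout-labelled groups the 10 Hoxb, Hoxc and Hoxd members were detected in every library, and only through these libraries were they listed. Levels in the Hoxa cluster were lower, though limma-voom did not call Hoxa7 and Hoxa9 in LM9. There 5 members, Hoxa2, Hoxa4, Hoxa13, Hoxaas2 and Hoxaas3, had at most 7 counts in every knockout-labelled library, against 4.94% of all listed genes. The limits of 4 and 7 counts are the highest counts of these members, so the shares beside them are description only. A gene was called on in a group at 1 CPM or more in all 3 libraries, off at 3 counts or fewer in all 3, and low otherwise. By this rule 7 members were on in LM1, 6 in LM9 and 10 in each group labelled knockout, where 73.4%, 71.4%, 76.1% (knockout-labelled LM1) and 76% (knockout-labelled LM9) of all listed genes were on. Whether such a difference reflects fewer cells with a transcript or less RNA per cell cannot be told apart in bulk samples.

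All 7 members on in LM1 were Hoxa genes, namely Hoxa2, Hoxa3, Hoxa5, Hoxa6, Hoxa7, Hoxa10 and Hoxaas2, and LM9 differed only in Hoxa6, which was low there. In both groups labelled knockout the 10 genes on were Hoxa5, Hoxa7, Hoxa10, Hoxb9, Hoxc5, Hoxc6, Hoxc8, Hoxd8, Hoxd10 and Hoxd3os1. Off in both parental groups and on in both groups labelled knockout were 6 members (Hoxb9, Hoxc5, Hoxc8, Hoxd8, Hoxd10 and Hoxd3os1), against 3% of all listed genes. The reverse held for 1 member, Hoxaas2, against 0.925% of all listed genes. On in all 4 groups were 3 members, Hoxa5, Hoxa7 and Hoxa10, against 65.2% of all listed genes.

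**Figure D1:**
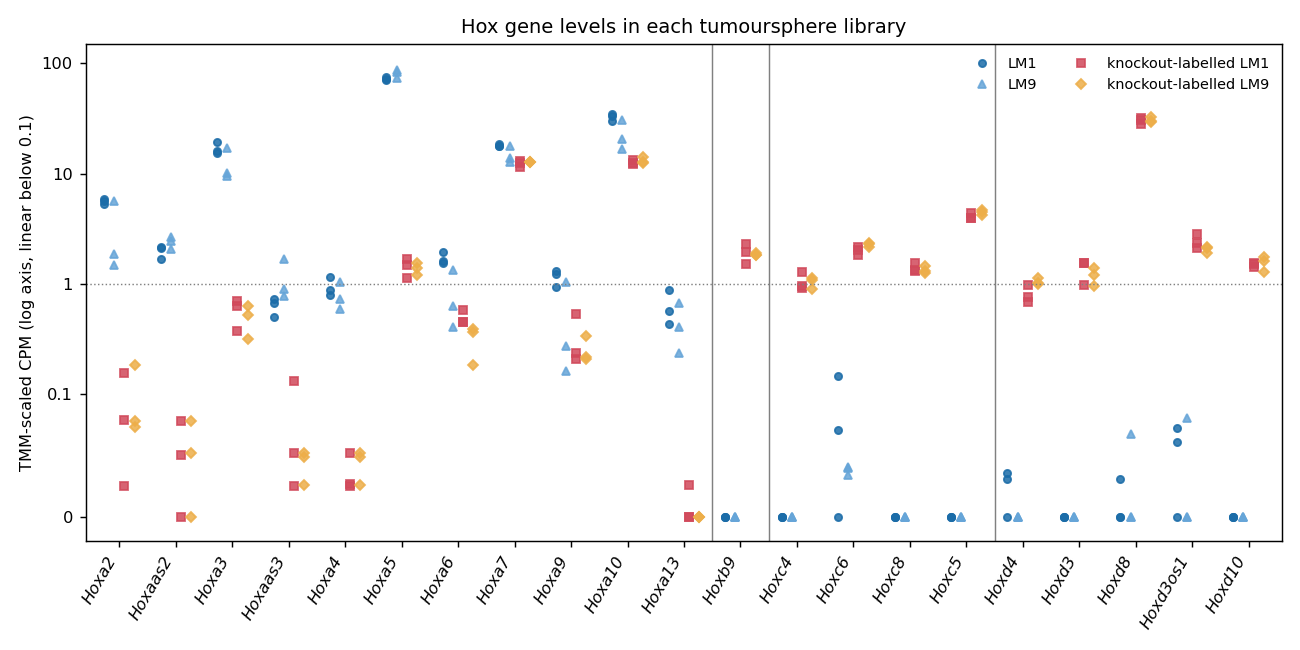
Level of each of the 21 members in every library (y axis, TMM-scaled CPM on a log scale that is linear below 0.1). Genes run along the x axis by cluster, from the 3′ to the 5′ side by annotated start, grey lines part the clusters, and the dotted line marks 1 CPM. The 6 parental libraries lie at or near 0 to the right of Hoxa13, and Hoxd8 of the libraries labelled knockout stands near 30 CPM.

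Hoxd8, a trunk-level Hoxd gene, showed the widest difference. It had 0, 1 and 0 counts in LM1 and 2, 0 and 0 counts in LM9. In the knockout-labelled LM1 libraries it had 1206, 1219 and 1077 counts (30.4, 31.9 and 28.5 CPM), and in the knockout-labelled LM9 libraries 1257, 1232 and 1122 counts (32.6, 30.0 and 29.2 CPM). All 6 libraries labelled knockout were high and the groups did not overlap. The ratio of summed scaled counts was 2675 against LM1 (95% exact interval 480 to 105699) and 1221 against LM9 (338 to 10082). These intervals cover counting error only, since reads are not independent molecules. Both ratios rest on the parental counts of single libraries. Against LM1 replicates 1 and 3 alone, or LM9 replicates 2 and 3 alone, the parental group was at 0 counts, and Hoxd8 was at least 281-fold and at least 256-fold higher. limma-voom called Hoxd8 higher in both lines (adjusted p = 1.63e-09 and 2.26e-09).

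The other Hoxd members were at lower levels. Hoxd10, a 5′ gene known from limb and motor neuron patterning, had 0 counts in all 6 parental libraries. It had 57, 58 and 59 counts in the knockout-labelled LM1 libraries and 68, 66 and 49 in the knockout-labelled LM9 libraries (1.44, 1.51 and 1.56 CPM, and 1.76, 1.61 and 1.27 CPM). Set against the floor of 3 counts per library, it was at least 14.7-fold higher in the first line and at least 13.6-fold higher in the other. Hoxd3, a gene of cervical patterning, also had 0 counts in every parental library, against 39, 59 and 59 counts in knockout-labelled LM1 libraries and 37, 57 and 46 in knockout-labelled LM9 ones, at least 13.3-fold and 10.4-fold higher. Its neighbour Hoxd4 had 1, 1 and 0 counts in LM1 and 0 in LM9, against 39, 29 and 26 counts and 44, 42 and 38 counts. Hoxd4 was 35.9-fold higher than in LM1 (95% exact interval 9.67 to 301) and at least 9.26-fold higher than in LM9. No library labelled knockout came near the parental counts for any of these genes.

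The Hoxc members lie at the 3′ and middle part of their cluster. Hoxc5, the highest of them, had 0 counts in all 6 parental libraries, 157, 151 and 166 counts in the knockout-labelled LM1 libraries (3.95, 3.95 and 4.39 CPM) and 164, 185 and 180 in the knockout-labelled LM9 libraries (4.25, 4.50 and 4.68 CPM). It was at least 40.0-fold higher than LM1 and at least 39.5-fold higher than LM9. Hoxc8, a gene of thoracic vertebrae and brachial motor neurons, had 0 counts in the parental libraries, against 52, 51 and 58 and then 48, 54 and 56 counts, at least 13.6-fold and 11.8-fold higher. Hoxc4 had 0 counts in the parental libraries, against 51, 37 and 35 and then 44, 37 and 42 counts, at least 10.4-fold and 9.21-fold higher. Groups did not overlap for any Hoxc gene.

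Hoxc6, another thoracic gene, was the member with the most parental counts outside the Hoxa cluster. It had 2, 0 and 4 counts in LM1 and 1 in each LM9 library. It had 72, 77 and 81 counts in the knockout-labelled LM1 libraries and 84, 94 and 91 in the knockout-labelled LM9 libraries. The ratios were 29.3 (95% exact interval 13.3 to 80.6) and 60.6 (20.5 to 296). The first was 18.5 without LM1 replicate 2 and 60.4 without LM1 replicate 3.

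Hoxb9, a thoracic Hox gene with a known part in mammary gland development, was the only Hoxb member analysed. It had 0 counts in all parental libraries. It had 91, 58 and 74 counts in the knockout-labelled LM1 libraries (2.29, 1.52 and 1.95 CPM) and 70, 75 and 73 in the knockout-labelled LM9 libraries (1.81, 1.82 and 1.90 CPM). That is at least 18.8-fold higher in the first line and at least 16.3-fold in the other.

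In the Hoxa cluster the direction was the opposite. Hoxa5, a regulator of lung and mammary epithelial development, was the highest Hox gene of the parental libraries at 71.4, 75.8 and 71.7 CPM in LM1 and 74.3, 83.9 and 86.2 CPM in LM9. It stood at 1.69, 1.12 and 1.48 CPM in the knockout-labelled LM1 libraries and 1.40, 1.22 and 1.53 CPM in the knockout-labelled LM9 libraries, so no library of one state reached the other. It was 51.0-fold lower in knockout-labelled LM1 libraries (95% exact interval 43.7 to 59.9) and 58.8-fold lower in knockout-labelled LM9 ones (50.3 to 69.1). The log2 fold changes were -5.68 (SE 0.15) and -5.87 (SE 0.15), with limma-voom adjusted p = 4.3e-11 and 3.57e-11. Though still on by the threshold of 1 CPM, Hoxa5 was among the members with the largest falls.

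The 3′ genes next to it also lay lower. Hoxa3, needed for thymus and parathyroid formation, was at 16.1, 15.4 and 19.2 CPM in LM1 and 16.9, 10.2 and 9.52 CPM in LM9, against 0.378, 0.705 and 0.634 CPM and 0.519, 0.316 and 0.624 CPM in the libraries labelled knockout of LM1 and LM9. It was lower by 29.5-fold (95% exact interval 23.1 to 38.4) and 25.9-fold (19.8 to 34.4). Hoxa2, the selector gene of the hyoid arch, had 149, 183 and 162 counts in LM1 and 167, 46 and 38 in LM9, against 1, 6 and 3 and then 3, 3 and 7 counts. LM9 replicate 1 was the high library of its group for Hoxa2, and the ratio was 64.7 (34.9 to 136) in LM1 and 28.6 (16.4 to 54.4) in LM9. The LM1 ratio was 108 (42.0 to 399) without replicate 2 of the knockout-labelled LM1 libraries. With LM9 replicate 1 left out, the ratio of Hoxa2 in LM9 was 15.2 (95% exact interval 8.42 to 29.7) and that of Hoxa3 was 20.4 (15.5 to 27.4).

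Among Hoxa genes at low levels, Hoxa4 and Hoxa13 were lower in both lines too. Hoxa4, a cervical gene, had 25, 38 and 22 counts in LM1 and 31, 18 and 15 in LM9, against 1, 2 and 1 and then 2, 2 and 1 counts. Hoxa13, the most 5′ gene of the cluster and a determinant of digits and hindgut, had 16, 29 and 12 counts in LM1 and 20, 10 and 6 in LM9, against 0, 1 and 0 counts and 0 in all 3. Hoxa4 was 27.8-fold lower in knockout-labelled LM1 libraries (95% exact interval 10.5 to 104) and 18.9-fold lower in knockout-labelled LM9 ones (7.71 to 60.3), and Hoxa13 was at least 5.74-fold lower in the latter. Both LM9 values were smaller with LM9 replicate 1 left out, at 15.5-fold (6.02 to 50.9) for Hoxa4 and at least 4.19-fold for Hoxa13.

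Hoxa6, on in LM1 alone, and Hoxa9, low in every group, had smaller differences, and Hoxa9 was not called in LM9. Hoxa6 had 44, 53 and 54 counts in LM1 and 40, 10 and 16 in LM9, against 18, 22 and 17 and then 15, 15 and 7. Hoxa9, known from haematopoietic progenitors, had 35, 43 and 26 counts in LM1 and 31, 4 and 7 in LM9, against 21, 8 and 9 and then 13, 9 and 8. After scaling the LM9 groups overlapped for Hoxa9, where replicate 1 alone stood above, and did not overlap for Hoxa6. The log2 fold change of Hoxa9 was -1.91 (SE 0.50) in LM1 (limma-voom adjusted p = 0.004) and -0.60 (SE 0.59) in LM9 (limma-voom adjusted p = 0.358), where it was 0.17 without replicate 1 (limma-voom adjusted p = 0.746). Hoxa6 was at -1.77 (SE 0.35) in LM1 and -1.25 (SE 0.43) in LM9 (limma-voom adjusted p = 0.000617 and 0.0176). Without LM9 replicate 1 the Hoxa6 value in LM9 was -0.76 and missed the threshold (limma-voom adjusted p = 0.0694), as it did without replicate 3 of the knockout-labelled LM9 libraries (-0.92, limma-voom adjusted p = 0.0773).

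Hoxa7 and Hoxa10 differed least in LM1. Hoxa7, a thoracic gene, was at 17.9, 17.7 and 18.7 CPM in LM1 and 17.9, 12.9 and 14.0 CPM in LM9, against 12.6, 13.1 and 11.5 CPM and 12.8, 12.7 and 12.9 CPM. LM1 stood above its counterpart without overlap, while the LM9 groups overlapped. Its log2 fold change was -0.55 (SE 0.11) in LM1 (limma-voom adjusted p = 0.000574) and -0.22 (SE 0.11, 95% interval -0.46 to 0.03) in LM9 (limma-voom adjusted p = 0.0904), where it turned to 0.14 with library totals in place of TMM scaling and was -0.07 without replicate 1, and it was called without replicate 2 (-0.31, limma-voom adjusted p = 0.0208). Hoxa10, a regulator of uterine and posterior axial development, was at 30.3, 33.1 and 34.7 CPM in LM1 and 30.8, 16.8 and 20.5 CPM in LM9, against 13.3, 12.2 and 12.5 CPM and 12.6, 14.3 and 12.4 CPM. All parental libraries stood above those labelled knockout. The log2 fold change of Hoxa10 was -1.37 (SE 0.17) in LM1 and -0.76 (SE 0.18) in LM9 (limma-voom adjusted p = 1.6e-05 and 0.00197), and -0.50 in LM9 without replicate 1.

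The 3 antisense or opposite-strand transcripts moved with the coding genes of their own cluster. Hoxaas2, which lies opposite the Hoxa3 region, had 60, 70 and 47 counts in LM1 and 61, 61 and 67 in LM9, against 2, 3 and 0 and then 2, 0 and 3 counts. It was 46.3-fold lower in knockout-labelled LM1 libraries (95% exact interval 19.5 to 144) and 55.9-fold lower in knockout-labelled LM9 ones (23.5 to 174). With so few counts single libraries mattered, and Hoxaas2 was 77.6-fold lower without replicate 2 of the knockout-labelled LM1 libraries, and 36.5-fold or 94.3-fold lower without replicate 2 or 3 of the knockout-labelled LM9 ones. Hoxaas3, which spans Hoxa4 to Hoxa6 on the opposite strand, had 14, 22 and 20 counts in LM1 and 23, 42 and 23 in LM9, against 1, 2 and 5 and then 2, 2 and 1 counts. Both antisense transcripts of the Hoxa cluster were lower in every library labelled knockout. Hoxd3os1, on the minus strand of the Hoxd cluster, had 0, 2 and 2 counts in LM1 and 0, 2 and 0 in LM9, against 84, 109 and 89 and then 73, 87 and 84 counts. It was higher by 53.9-fold (95% exact interval 20.8 to 199) and 82.5-fold (22.6 to 685). The latter was 51.9-fold (14.2 to 431) without LM9 replicate 1 and at least 18.8-fold without LM9 replicate 2, which held both counts.

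Over all members, limma-voom called 21 of 21 different between the knockout-labelled LM1 libraries and LM1, where 81.2% of all 18176 genes tested were called. The 11 Hoxa members were lower, against 38.1% of all genes, and the 10 Hoxb, Hoxc and Hoxd members were higher, against 43.1%. Every listed gene reached 8 counts in at least 3 libraries. The 10 had at most 4 in each parental library, so they were listed only through knockout-labelled libraries. The 5 Hoxa members with at most 7 counts in those were listed only through parental libraries. Their direction followed from the listing, so their calls and medians are description and no separate support. Groups did not overlap for any of the 21, as for 89.1% of all genes. In LM9, 19 of 21 were called (82.3% of all genes), 10 higher (44.3%) and 9 lower (38%), and Hoxa7 and Hoxa9 were the exceptions in the test and in the overlap (groups did not overlap for 80.5% of all genes). Without LM9 replicate 1, 18 were called (88.9% of all genes), 10 higher (47.7%) and 8 lower (41.2%), and Hoxa6 was lost. With library totals in place of TMM scaling, Hoxa6 (-0.87) and Hoxa10 (-0.40) were not called in LM9, nor was Hoxa6 (-1.24) in a fit of those 2 groups alone. The share of members called is close to the share of all genes, so the number of calls alone does not set the Hox genes apart. Direction by cluster is described by the median log2 fold change, which in LM1 was -4.38 for Hoxa, 6.16 for Hoxc and 6.30 for Hoxd, and in LM9 -4.31, 5.98 and 6.01, beside 0.08 and 0.13 over all genes. For members at 0 counts in a group the fitted value depends on the offset added to the counts and is not a bound. An exact permutation test of 3 libraries against 3 cannot go below p = 0.1.

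**Figure D2:**
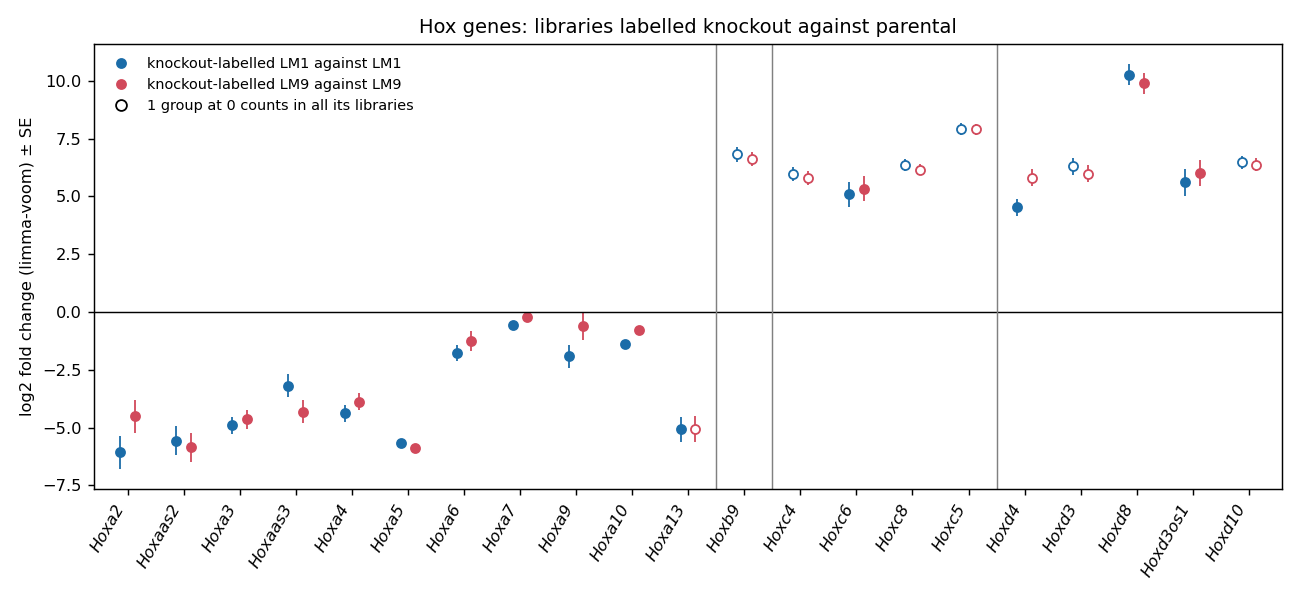
Fitted log2 fold change (limma-voom, y axis, bars are SE) of each member in the knockout-labelled LM1 libraries against LM1 and knockout-labelled LM9 against LM9, 3 libraries a group. Hollow points have 1 group at 0 counts in all its libraries. Hoxa genes lie below 0 (Hoxa7 and Hoxa9 in LM9 did not pass the threshold) and the 10 Hoxb, Hoxc and Hoxd genes lie above 0.

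Levels per kb of exon allow genes to be set side by side. In LM1 the order of mean CPM per kb was Hoxa5 (38.9), Hoxa10 (which made up 14.9% to 16.4% of the summed level given below), Hoxa7 (6.30), Hoxa2 (3.14) and Hoxa3 (2.81). LM9 kept Hoxa5 (43.4), Hoxa10 (6.95) and Hoxa7 (5.19) at the top. In the knockout-labelled LM1 libraries the order was Hoxd8 (11.0), Hoxa7 (4.32), Hoxa10 (3.88) and Hoxc5 (1.33), and in the knockout-labelled LM9 libraries it was Hoxd8 (11.1), Hoxa7 (4.45), Hoxa10 (4.01) and Hoxc5 (1.45). The 4 leading genes and their order were thus shared by the groups labelled knockout.

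Summed over the protein-coding members, the level was 62.1 to 65.6 CPM per kb in LM1, 58.2 to 64.0 in LM9, 25.2 to 26.4 in the knockout-labelled LM1 libraries and 25.7 to 27.1 in the knockout-labelled LM9 libraries. Hoxa genes made up at least 99.9% of this sum in every parental library. In the knockout-labelled LM1 libraries, Hoxa made up 37.1% to 38.2%, Hoxb9 2.23% to 3.38%, Hoxc 11.2% to 12.8% and Hoxd 47.0% to 49.4%. The knockout-labelled LM9 libraries gave 35.9% to 37.9%, 2.61% to 2.87%, 11.7% to 13.4% and 46.6% to 49.8% in the same order. Hoxa5 alone made up 58.8% to 61.6% of the sum in LM1 and 61.9% to 76.8% in LM9, and at most 3.41% in the libraries labelled knockout, where Hoxd8 made up 41.2% to 43.9%.

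**Figure D3:**
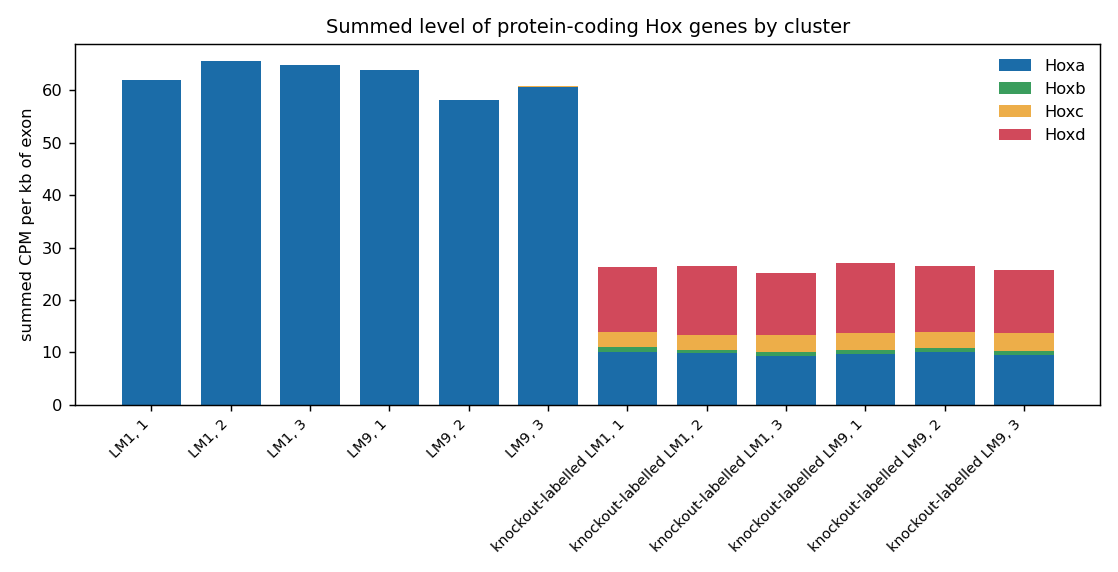
Sum of CPM per kb of exon over the 18 protein-coding members (y axis, from 0) in each library (x axis, group and replicate number), stacked by cluster. The 6 parental bars, 58.2 to 65.6 high, are Hoxa alone at this scale, and the 6 bars labelled knockout, 25.2 to 27.1 high, are mostly Hoxa and Hoxd.

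The parental lines, metastatic isolates of one origin, were compared with each other. In both of them the 10 Hoxb, Hoxc and Hoxd members were at or near 0 counts. limma-voom called 0 of 21 members (0.0055% of all genes called), 6 had an unadjusted p under 0.05 (47.6% of all genes), edgeR called 0 (0.0055% of all genes) and DESeq2 called 2 (Hoxa6 and Hoxa10, against 30.6% of all genes). This comparison turned on LM9 replicate 1. For the 11 Hoxa members, LM9 replicate 1 lay inside the range of the LM1 libraries in 9, while LM9 replicates 2 and 3 each lay inside it in 0. Their median absolute distance from the LM1 mean was 0.73 and 0.68 on the log2 scale, against 0.09 for replicate 1.

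Without LM9 replicate 1, limma-voom called 8 Hoxa members different between LM1 and LM9, where 65.7% of all genes were called. Hoxa9 (2.35), Hoxa2 (1.73), Hoxa6 (1.71), Hoxa10 (0.81), Hoxa3 (0.77) and Hoxa7 (0.43) were higher in LM1 on the log2 scale, and Hoxaas3 (-0.97) and Hoxa5 (-0.22) were lower in LM1. Of all genes 33.4% were called higher and 32.4% lower in LM1. These rest on 2 LM9 libraries. The 8 called were 72.7% of the 11 Hoxa members, near the share of all genes. The 10 other members were at or near 0 counts in both lines and were not called. In LM9 replicates 2 and 3 alike, the 8 Hoxa members below the LM1 range were Hoxa2, Hoxa3, Hoxa4, Hoxa6, Hoxa7, Hoxa9, Hoxa10 and Hoxa13, and the 3 above it were Hoxa5, Hoxaas2 and Hoxaas3.

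**Figure D4:**
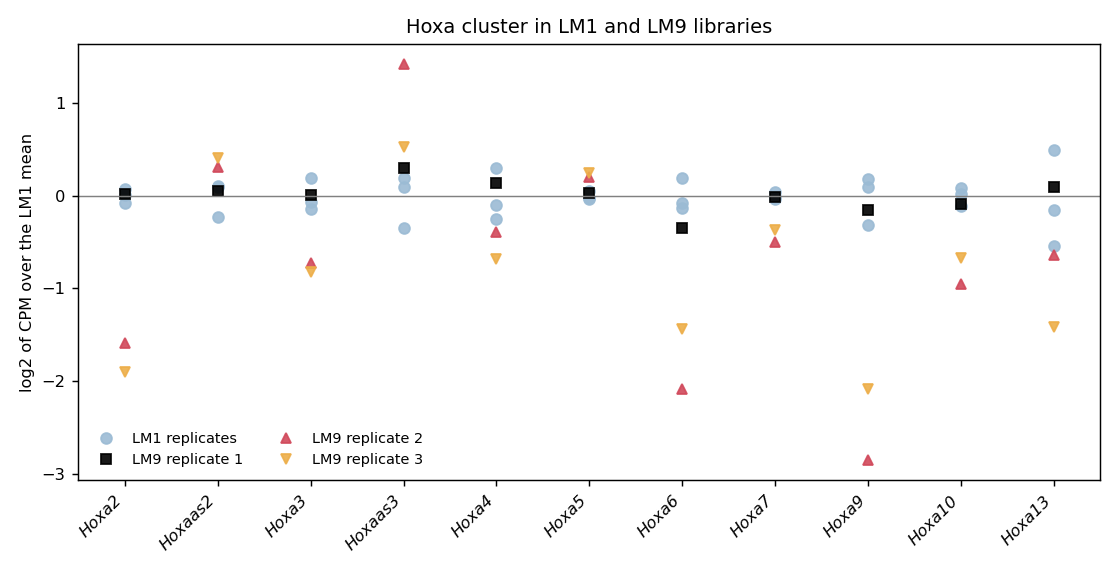
Log2 of CPM over the mean of the 3 LM1 libraries (y axis) for the 11 Hoxa members (x axis), with 1 point a library. LM9 replicate 1 lies within the LM1 libraries for 9 of 11 genes, and LM9 replicates 2 and 3 lie outside them for all 11, down to -2.86 at Hoxa9 and up to 1.42 at Hoxaas3.

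The groups labelled knockout did not separate. Between the knockout-labelled LM1 libraries and the knockout-labelled LM9 libraries, limma-voom called 0 of 21 members (0% of all genes called), 0 had an unadjusted p under 0.05 (0.979% of all genes), and edgeR and DESeq2 called 0, as over all genes, where each called 0%. The intervals of the differences rest on a spread shared by all 4 groups, LM9 replicate 1 included. For Hoxd8 the log2 difference was -0.02 (95% interval -0.25 to 0.22), for Hoxa7 -0.04 (-0.28 to 0.19), for Hoxc5 -0.13 (-0.33 to 0.07) and for Hoxa10 -0.05 (-0.45 to 0.36). Without LM9 replicate 1 the SE went from 0.107 to 0.053 for Hoxd8 and from 0.108 to 0.061 for Hoxa7. It went from 0.093 to 0.089 for Hoxc5 and from 0.183 to 0.083 for Hoxa10. The interval was wide for low genes, such as Hoxa2 (-2.51 to 1.61). Groups did not overlap for 3 of 21 members, as for 12.6% of all genes. Over all genes the 6 libraries labelled knockout correlated with each other at 0.993.

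Whether the difference between the libraries labelled knockout and parental was itself unequal in the lines was tested as an interaction. limma-voom called 0 of 21 members (0% of all genes), 2 had an unadjusted p under 0.05 (24.7% of all genes), and edgeR (0.0055% of all genes) and DESeq2 (0.385%) called 0. Without LM9 replicate 1 it called 4, Hoxa2, Hoxa7, Hoxa9 and Hoxa10, where 57.2% of all genes were called, and each of these had a more negative change in LM1, as did 29.6% of all genes, while 0 had a less negative or more positive one (27.6% of all genes).

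The cofactors and regulators of Hox genes were described from lists drawn up for the purpose. Their counts stand beside 43.1% of all genes called higher and 38.1% lower in LM1, and 44.3% higher and 38% lower in LM9, or 46.4% and 42.1% in LM1 and 47.7% and 41.2% in LM9 with LM9 replicate 1 left out. Of 9 TALE cofactors, 1 was higher and 6 were lower in knockout-labelled LM1 libraries (median log2 fold change -0.64), and 2 were higher and 5 lower in knockout-labelled LM9 ones (-0.72). Pknox2, which encodes PREP2, rose from 0.142, 0.153 and 0.145 CPM in LM1 to 1.26, 1.44 and 1.59 CPM, with a log2 fold change of 3.13, and by 4.37 in LM9 (5.21 without LM9 replicate 1). Meis3 (-2.33 and -2.86) and Pbx3 (-1.89 and -1.70) had the largest falls called in both lines. In LM9 Meis1 was also higher (0.44, limma-voom adjusted p = 0.0329). When LM9 replicate 1 was left out, 4 were higher (Meis1, Meis2, Pknox1 and Pknox2) and 5 lower in LM9, and 1 was higher and 7 lower in LM1, so the split in LM9 depended on that library.

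Of 27 Polycomb subunits, 7 were higher and 15 lower in LM1, and 6 were higher and 12 lower in LM9, with median log2 fold changes of -0.20 and -0.20. Cbx7 (-3.18 and -2.76), a chromodomain subunit of Polycomb repressive complex 1, and Rnf2 (-2.15 and -2.13), its catalytic ubiquitin ligase, fell, and Pcgf6 (1.27 and 1.74) and Jarid2 (0.98 and 1.11), which belong to variant complexes, rose. Ezh2, the main H3K27 methyltransferase, was at 0.29 in LM1 (limma-voom adjusted p = 0.0514) and -0.04 in LM9 (limma-voom adjusted p = 0.75). Ezh2 was called in both lines once LM9 replicate 1 was left out, higher in LM1 (0.30, limma-voom adjusted p = 2.63e-05) and lower in LM9 (-0.23, limma-voom adjusted p = 0.000712), and the Polycomb counts were 9 higher and 16 lower in LM1 and 7 and 15 in LM9. Of 13 trithorax members and H3K27 demethylases, 1 was higher and 6 lower in LM1, and 2 were higher and 7 lower in LM9. Kdm6b, an H3K27 demethylase, fell by 2.74 and 2.50 on the log2 scale and Kmt2a, the MLL methyltransferase known to keep Hox genes active, by 1.83 and 1.46, while Ash2l rose (0.49 and 0.69). The counts of this list without LM9 replicate 1 were 1 higher and 8 lower in LM1 and 3 and 7 in LM9.

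Of 8 listed upstream regulators 5 were tested, with 2 higher and 2 lower in LM1 and 1 higher and 1 lower in LM9 (2 and 3, and 1 and 2, without LM9 replicate 1). Of the retinoic acid receptors, Rarb rose (1.75 and 3.03), Rara fell (-2.25 and -2.37), and Rarg rose in LM1 (0.53) and was at -0.16 and not called in LM9, where it was called lower without LM9 replicate 1 (-0.47, limma-voom adjusted p = 1.04e-09). Rarb had 28, 1 and 4 counts in LM9, and its log2 fold change there was 4.16 without replicate 1. Ctcf, which encodes the insulator protein of cluster boundaries, was at -0.10 and -0.01 and was not called, though it was called lower in LM1 without LM9 replicate 1 (-0.10, limma-voom adjusted p = 0.0281).

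Of 25 listed neighbours of the clusters 10 were tested, with 3 higher and 5 lower in LM1 and 3 higher and 6 lower in LM9 (4 and 6 in LM9 without LM9 replicate 1). Hotairm1, an antisense transcript at the 3′ end of the Hoxa cluster, fell with the Hoxa genes (-2.77 and -3.32). Mtx2, beside the 3′ end of Hoxd, rose (1.46 and 1.80), as did Snx11 near Hoxb (1.71 and 1.92). Ttll6, also near Hoxb, had 0 counts in the libraries labelled knockout. Skap2, beside the 3′ end of Hoxa, fell (-1.52 and -1.38), and Hibadh, beyond Hoxa13, was at -0.08 in LM1, where it was not called, and fell in LM9 (-0.32, limma-voom adjusted p = 0.00876). Neighbours near Hoxb and Hoxc whose direction was opposite to that of the Hox members there were Ttll6, Cbx1 (-1.62 and -1.84) and Calcoco1 (-2.26 and -2.02), all lower in both lines.

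**Figure D5:**
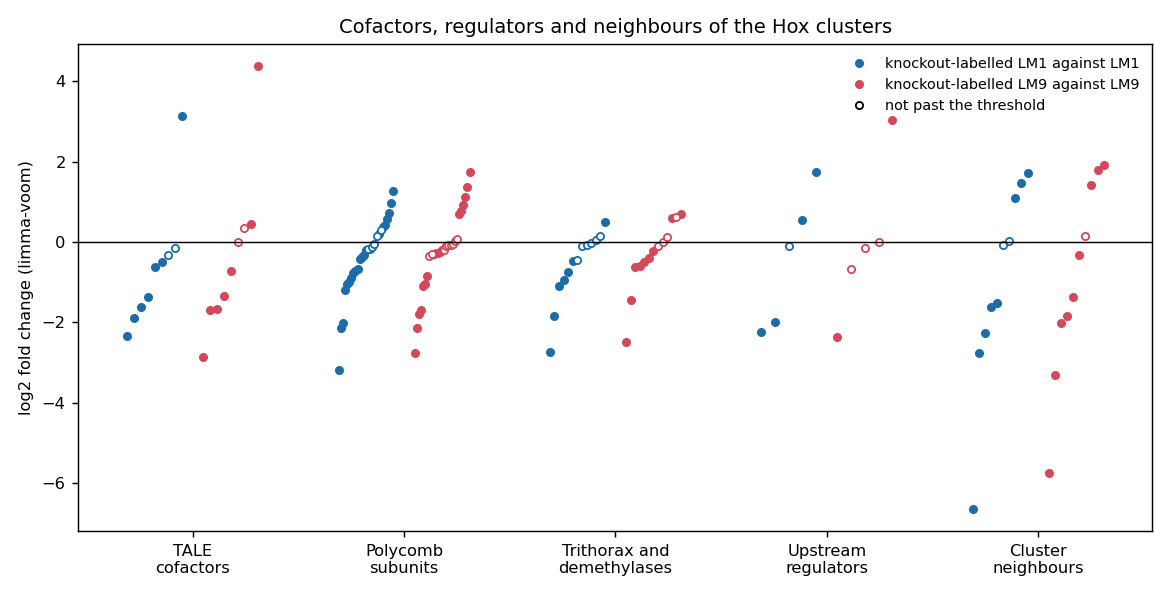
Fitted log2 fold change (limma-voom, y axis) of the tested genes of 5 lists (x axis), with libraries labelled knockout against parental in LM1 and in LM9, 3 libraries a group. Filled points passed the threshold and hollow points did not. Pknox2 is the highest point (4.37 in LM9) and Ttll6 the lowest (-6.65 in LM1).

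Markers of the labelled tissue and of other cell types moved with the Hox genes. Their counts stand beside 43.1% of all genes called higher and 38.1% lower in LM1, and 44.3% higher and 38% lower in LM9. The 9 analysed markers of mammary luminal epithelium summed to 919 to 991 CPM in LM1 and 986 to 1752 in LM9 (1700 to 1752 without LM9 replicate 1). In the 6 libraries labelled knockout they summed to 33.9 to 34.9 CPM, with 8 of 9 lower in both lines and Cdh1, Cldn3 and Cldn4 at or under the floor there. Esr1, the marker that was higher (1.43 and 2.48), stood at 25.7 to 27.9 CPM in the libraries labelled knockout and made up most of the remaining sum. The 7 mesenchymal markers were 7 higher in LM1 and 6 higher in LM9. Parental sums ran from 3184 to 3457 CPM for LM1 and from 3410 to 5754 for LM9. The LM9 range was 5688 to 5754 once replicate 1 was left out. Libraries labelled knockout reached 6575 to 6825 CPM. Vim carried most of every sum, with 2940 to 3225 CPM for LM1 libraries and 5158 to 5330 for those labelled knockout. For LM9 replicates 1, 2 and 3 Vim stood at 3179, 5542 and 5468 CPM. Of 5 kidney tubule markers 4 were higher and 1 lower in both lines. Their sum was 6.94 to 7.72 CPM in LM1 and 7.69 to 25.8 CPM in LM9 (24.8 to 25.8 without LM9 replicate 1). It was 983 to 1115 CPM in the libraries labelled knockout, and Pax2, Pax8, Emx2 and Aqp2 were at or under the floor in the parental libraries. Aqp2 alone stood at 977 to 1109 CPM in the libraries labelled knockout and so carried nearly the whole sum, while Emx2 was at 3.58 to 3.98 CPM, Pax2 at 0.365 to 0.528 CPM and Pax8 at 0.261 to 0.676 CPM. Of 3 endothelial markers 2 were higher in both lines, with sums of 0.202 to 1.33 CPM in the parental libraries and 350 to 359 CPM in those labelled knockout, carried by Kdr and Cdh5. Pecam1 and the mesenchymal marker Vim were called lower in LM9 (-1.89 and -0.08) with LM9 replicate 1 left out and were not called with it. Of 4 basal markers 3 were higher in both lines and 1 was lower in LM1, and of 2 leukocyte markers 1 was higher and 1 lower. The part of these differences in the Hox pattern was not tested.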

How the data were processed

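RNA-seq gene counts of 12 tumoursphere libraries were used, 3 in each of 4 groups taken from the sample titles. The authors prepared stranded poly-A libraries, aligned single-end reads with STAR to mm10 and counted 5′ read ends over the exon union of each gene with QuasR. Each deposited table held raw integer counts for 1 library. Versions, annotation and the use of strand in counting were not given in the sources used here. Strand was checked on 32 pairs of a gene lying at least 90% inside exons of an opposite-strand gene of at least 1000 counts. The ratio of its counts per exon base to those of the partner had a median of 0.113. Names and coordinates (1-based) came from GENCODE M21 on GRCm38 and matched 18268 of 18278 identifiers.

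limma-voom (limma 3.58.1, edgeR 4.0.16 for TMM factors, R 4.3.3) was fitted to 18176 genes kept by filterByExpr (count minimum 10, total minimum 15), with 1 mean per group, an offset of 0.5, two-sided tests and Benjamini-Hochberg adjustment over all genes; the threshold was an adjusted p of 0.05. Ratios of summed counts were divided by effective library sizes and carry exact 95% binomial intervals, and lower bounds used 3 counts per library. Code was tested on simulated data. Alternatives were edgeR's quasi-likelihood test, DESeq2 (1.42.0), median-ratio factors, library totals, a blocking term for the replicate number, separate fits of the compared groups, a 5 CPM minimum on the mean, no minimum, a limit of 1 on the absolute log2 fold change, other limits for on and off, and leaving out each library, which for the ratios was added after the data were seen. The members and lists were chosen with earlier results of these data known. 1 gene found by the symbol rule and 2 genes of the lists are not reported here. All members described were named, with values in every library for those whose state differed or that were on in all groups; list genes named were the 2 largest rises and 2 largest falls called in both lines, and Ezh2, Ctcf, Skap2, Hibadh, Meis1, Meis2, Pknox1, Rarg, Cbx1 and Calcoco1 were added after their values were seen.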

Additional observations from a re-analysis of the deposited data

Results flagged for a closer look

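For 4 Hoxa genes the difference between libraries labelled knockout and parental was unequal in the lines by the interaction term of limma-voom, once LM9 replicate 1 was left out. The log2 difference, LM1 minus LM9, was -2.18 for Hoxa2, -0.48 for Hoxa7, -2.09 for Hoxa9 and -0.86 for Hoxa10, with limma-voom adjusted p-values from 1.13e-05 to 0.00627. With all 12 libraries none of the 4 passed, and 57.2% of all genes passed without LM9 replicate 1. The Hoxa levels of that library stood with those of LM1, and its part in the result beyond this was not tested.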

How the results depend on the processing

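Members called numbered 5 of 21 in LM1, 4 in LM9 and 1 between LM1 and LM9 under a mean of at least 5 CPM, which left 5 members to test and called 84.3%, 84.7% and 39.4% of all genes. Between LM1 and LM9, DESeq2 called 2 (30.6% of all genes) and library totals 5 (28.8%). Leaving out each library gave 21 to 21 calls in LM1, 18 to 20 in LM9, 0 to 8 between the parental lines, 0 to 0 between the groups labelled knockout and 0 to 4 for the difference between the lines, with the highest of the parental comparison (8) and of the difference (4) reached without LM9 replicate 1. The same alternatives gave 7 to 8 members on in LM1, 10 to 11 in knockout-labelled LM1 libraries, 6 to 6 in LM9, 10 to 11 in knockout-labelled LM9 ones, 1 to 1 on in both parental groups and off in both labelled knockout, and 6 to 7 the other way round. With on set at 2 CPM, 5 were on in each group labelled knockout, 0 were on in both parental groups and off in both labelled knockout, and 2 the other way round. Members on in both parental groups and off in both labelled knockout were 2 with on set at 0.5 CPM and 2 with off set at 10 counts. Equal replicate numbers did not pair samples (correlations of deviations from -0.06 to 0.03), and the replicate block gave 21, 19, 0, 0 and 0 calls and changed none of these counts. Of 806 single-gene alternatives for 42 values 798 kept direction and side of the threshold, 5 lost the call (Hoxa6 and Hoxa10 in LM9) and 1 gained it (Hoxa7 in LM9 without LM9 replicate 2, -0.31). Hoxa7 in LM9 turned to 0.14 with library totals (limma-voom adjusted p = 0.36), which moved the median of all genes from 0.13 to 0.49 in LM9 and from 0.08 to 0.31 in LM1, and Hoxa9 in LM9 ran from -1.14 (without LM9 replicate 2) to 0.17 (without LM9 replicate 1). Members under about 10 counts have ratios whose intervals span several-fold.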
